A study of Mus musculus with 28 samples.

Results

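The genes described are 10 acetylcholine receptor genes, chosen by name, with earlier results of these data known, and without a rule on measured values: the muscarinic receptors *Chrm1* to *Chrm5* and the neuronal nicotinic subunits *Chrna3*, *Chrna4*, *Chrna5*, *Chrnb2* and *Chrnb4*. All 10 were found among the 55450 genes of the GENCODE vM21 annotation on mm10 (GRCm38). H3K4me3 and H3K27me3 were profiled by CUT&RUN (CnR), in which an antibody guides a nuclease to cut out the nucleosomes that carry a mark, in nuclei of A2a and D1 medium spiny neurons of the mouse striatum. Of the 28 samples of the series, 8 stand behind the 4 deposited lists, 2 per cell type and mark, and each list was called on the pooled pair. The mice were C57BL/6J, about 8 weeks old and of both sexes, and carried R26-CAG-LSL-Sun1-sfGFP, a nuclear envelope tag at the Rosa26 locus that Cre recombinase switches on. A2a nuclei came from crosses to A2a-cre and D1 nuclei from crosses to Drd1-cre, so the tagged nuclei are those with a history of that Cre, and both groups carried the tag and a Cre. H3K4me3 was measured with an Abcam antibody and H3K27me3 with an Active Motif antibody. The D1 H3K27me3 samples carry D1 in their title and cell type and A2a in their source name. The title was followed here, and each H3K27me3 difference below depends on that.

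Acetylcholine in the striatum comes mainly from local cholinergic interneurons and acts through 2 receptor classes. Muscarinic receptors couple to G proteins: M1, M3 and M5 to Gq, which activates phospholipase C, and M2 and M4 to Gi, which lowers cyclic AMP. Nicotinic receptors are cation channels assembled from subunits, with the alpha4 and beta2 subunits forming the common high-affinity receptor of the brain and alpha3, alpha5 and beta4 abundant in autonomic ganglia and the medial habenula. M1 and M4 are known as the main muscarinic receptors of medium spiny neurons, M4 more so in those with D1 receptors. H3K4me3 lies at promoters of active or poised genes, and H3K27me3 is laid down by Polycomb complexes at silenced genes, while a promoter in both lists can hold both marks on 1 chromosome or a mixture of cells or alleles.

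The A2a lists held 22551 H3K4me3 peaks and 60191 H3K27me3 islands, and the D1 lists 20080 and 45760. Islands were the enriched stretches that SICER called, with a median of 211 reads in A2a and 104 in D1 and at least 36 and 27 reads. They covered 301.003 Mb and 184.119 Mb. Sums of reads over the islands of a locus were therefore set against the median A2a to D1 ratio over genes, 2.5 (8857 genes), and peaks were ranked as percentiles of their own list. Such a sum covers listed islands only, so it moves with the length called as well as with the density of reads, and the length covered is given beside it. Each list gives 1 value per cell type, so no spread between mice is known and no difference below has a test. The D1 H3K4me3 list held more peaks on the Y chromosome (7 against 2 in A2a), so cell type and the sexes of the mice cannot be told apart.

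The A2a and D1 neuron markers differed between the lists in the size of the H3K27me3 island and in the rank of the H3K4me3 peak. Among the A2a markers *Adora2a*, *Drd2* and *Penk*, *Adora2a* had H3K4me3 alone in A2a and both marks in D1, where its promoter island held 4153 reads over 45 kb. The other A2a markers, and the D1 markers *Drd1*, *Pdyn* and *Tac1*, had both marks in both lists. Islands at the A2a markers held more reads in the D1 list, with 200 in A2a and 1365 in D1 at *Penk*. Those at the D1 markers held more in the A2a list, with 9144 in A2a and 121 in D1 at *Tac1* and 1958 and 86 at *Drd1*. For the H3K27me3 samples whose source name differs from their title, these markers ran in the direction that the titles give. Ranked by −log10 q, the strongest promoter H3K4me3 peak stood at percentile 90.6 in A2a and 53.4 in D1 at *Adora2a*. It stood at 53.0 and 41.0 at *Drd2*, 48.7 and 43.3 at *Penk*, 4.04 and 43.6 at *Drd1*, 19.1 and 45.1 at *Pdyn*, and 35.4 and 48.1 at *Tac1*. Fold enrichment was higher in D1 at *Drd2* (3.51 in A2a and 3.98 in D1) and *Penk* (3.06 and 3.67). Of the 4 markers of cholinergic neurons, *Chat*, *Slc18a3* and *Slc5a7* had H3K27me3 and no H3K4me3 in both lists, and *Isl1* had both marks in both. The interneuron markers *Pvalb*, *Sst* and *Npy* and the dopamine neuron markers *Th* and *Slc6a3* had no H3K4me3. The cortical marker *Slc17a7* had both marks in both lists, and *Neurod6* had H3K4me3 in D1 alone. H3K4me3 was at 2 of 3 oligodendrocyte markers (*Mbp* and *Mog*) and 1 of 3 microglial markers (*P2ry12*) in A2a, and in D1 at *Mbp* alone. The 3 astrocyte markers had none at GENCODE starts, and at RefSeq starts *Aqp4*, *Aldh1l1* and the microglial *Cx3cr1* had both marks in A2a. The part of other nuclei in the values below was not tested.

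The sequences before the start sites of 5 receptor genes are shown first, because base composition, position of the start and marks differed among them. They are the bases before the RefSeq start that lie outside the gene's own GENCODE exons, on GRCm38.p6, written 5′ to 3′ on the gene's strand with each CpG in capitals. *Chrm4* (chr2:91921939-91922188, plus strand) had H3K4me3 in both lists and H3K27me3 in A2a alone. *Chrm3* (chr13:10360848-10361053, minus strand) had both marks in both. *Chrm5* (chr2:112480818-112481067, minus strand) had neither, *Chrnb2* (chr3:89764633-89764882, minus strand) had H3K4me3 alone, and *Chrna3* (chr9:55026563-55026812, minus strand) had H3K27me3 alone.
Chrm4: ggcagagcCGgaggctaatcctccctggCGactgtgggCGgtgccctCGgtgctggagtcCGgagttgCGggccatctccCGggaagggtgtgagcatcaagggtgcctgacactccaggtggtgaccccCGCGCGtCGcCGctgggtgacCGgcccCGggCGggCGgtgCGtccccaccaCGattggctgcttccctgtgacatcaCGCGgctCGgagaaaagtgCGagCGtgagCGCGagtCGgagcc
Chrm3: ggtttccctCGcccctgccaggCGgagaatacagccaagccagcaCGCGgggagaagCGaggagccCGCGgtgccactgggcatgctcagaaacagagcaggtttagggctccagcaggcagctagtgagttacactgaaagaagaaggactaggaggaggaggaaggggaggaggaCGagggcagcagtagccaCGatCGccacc
Chrm5: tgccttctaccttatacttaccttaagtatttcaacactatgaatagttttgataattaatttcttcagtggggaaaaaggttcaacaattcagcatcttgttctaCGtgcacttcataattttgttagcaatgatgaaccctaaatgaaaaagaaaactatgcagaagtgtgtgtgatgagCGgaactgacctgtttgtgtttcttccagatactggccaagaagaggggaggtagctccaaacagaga
Chrnb2: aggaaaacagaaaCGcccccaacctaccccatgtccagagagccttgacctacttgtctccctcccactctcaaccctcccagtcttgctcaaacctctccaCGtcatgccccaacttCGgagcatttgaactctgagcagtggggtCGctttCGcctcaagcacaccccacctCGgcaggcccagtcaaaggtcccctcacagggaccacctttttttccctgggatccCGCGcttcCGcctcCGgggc
Chrna3: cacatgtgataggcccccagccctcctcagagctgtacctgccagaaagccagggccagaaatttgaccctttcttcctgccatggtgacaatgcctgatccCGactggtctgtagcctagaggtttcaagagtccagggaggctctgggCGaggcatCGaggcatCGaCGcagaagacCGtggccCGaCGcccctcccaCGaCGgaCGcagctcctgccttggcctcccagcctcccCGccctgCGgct

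In the RefSeq promoter table, which gives 250 bases before and 50 after each start, 9 of the 10 genes were found, all but *Chrm1*. The median of its 32851 promoters was 7 CpG and 52.7% GC. The 300 bases of *Chrna4* held 33 CpG and those of *Chrm4* 30, more than or equal to 92.3% and 89.4% of all promoters. *Chrna5* has 2 starts that differed: 5 CpG at the first and 25 at the second. *Chrna3* held 18, *Chrm2* 16, *Chrnb4* 14, *Chrnb2* 12 and *Chrm3* 11. *Chrm5* was the poorest, with 3 CpG and 39.0% GC, and it was also the one gene with no mark at its annotated start in any list. That start lies 48 bp from a GENCODE model that holds coding sequence only, and a start farther upstream was not looked for. Whether CpG content and marks are related was not tested. The GC box GGGCGG, searched on both strands as GGGCGG or CCGCCC, occurred 4 times at *Chrm4*, 4 times at the second *Chrna5* start, 3 times at *Chrna4* and once each at *Chrm2*, *Chrnb2* and *Chrna3*, and 35.7% of all promoters held it. No TATA box (TATAAA or TTTATA, in 13.6% of all promoters) was found in these windows. A short CRE core (TGACG or CGTCA, in 20.8%) occurred at *Chrnb2* and the first *Chrna5* start.

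The promoter was taken from 2 kb upstream to 1 kb downstream of the GENCODE gene start, and a mark counted when a peak or island overlapped it. Distances to the nearest peak or island are from the edge of this window. By this rule H3K4me3 was at 5 of the 10 genes in both lists: *Chrm1*, *Chrm3*, *Chrm2*, *Chrnb2* and *Chrna5*. Over all annotated genes it was at 30.1% in A2a and 28.6% in D1. H3K27me3 was at 6 genes in A2a, namely *Chrm3*, *Chrm2*, *Chrm4*, *Chrna3*, *Chrna5* and *Chrnb4*, against 19.3% of all genes, and at 5 of these in D1, all but *Chrm4*, against 13.1%. Both marks were at *Chrm3*, *Chrm2* and *Chrna5* in each list, 3 of 10 genes, against 4.96% of all genes in A2a and 2.87% in D1. The state differed between the lists at 1 gene, *Chrm4*, which is 10% of the members and near the 10.9% of all genes.

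For 2 genes the annotated start decided the H3K4me3 call. GENCODE starts *Chrm4* at its coding exon and *Chrna4* upstream of its RefSeq start, and the H3K4me3 peak of each gene lay over the RefSeq start instead. With curated RefSeq starts, a choice made after the data were seen, H3K4me3 was at 7 of 10 genes in both lists, against 56.1% of RefSeq genes in A2a and 53.7% in D1. H3K27me3 stayed at 6 and 5 genes, against 22.9% and 16.4%. Both marks were then at 4 genes in A2a (9.84% of RefSeq genes) and at 3 in D1 (5.89%), and *Chrm4* was again the single gene whose state differed (11.4%). *Chrna4* joined *Chrm1* and *Chrnb2* as genes with H3K4me3 alone in both lists, *Chrna3* and *Chrnb4* had H3K27me3 alone in both, and *Chrm5* had neither.

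**Figure D1:**
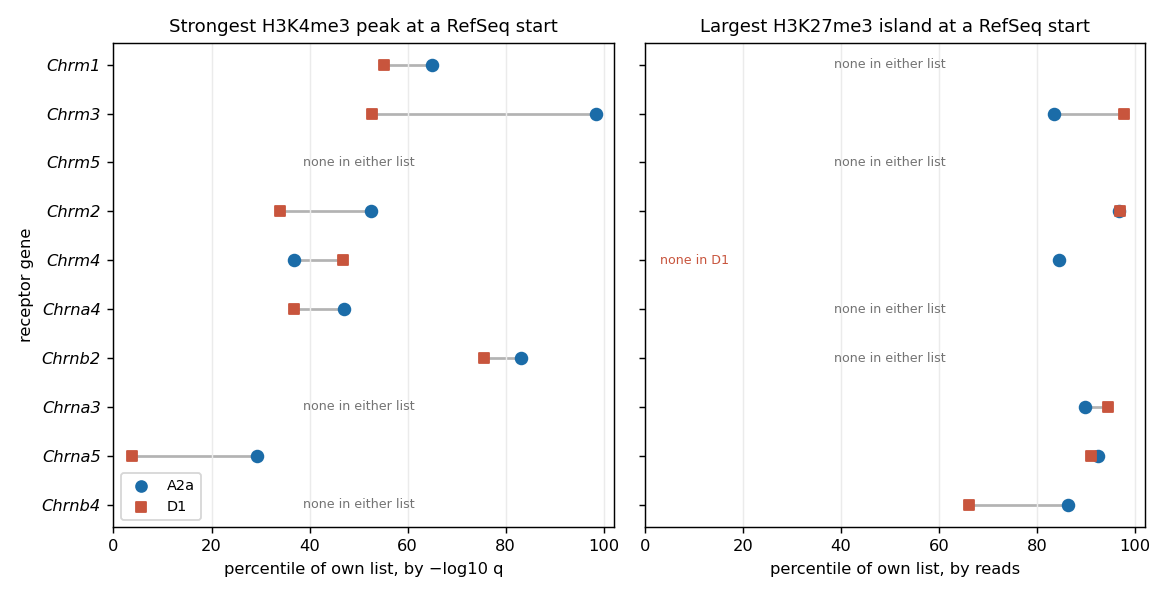
Left, the strongest H3K4me3 peak at a curated RefSeq start of each gene as a percentile of all peaks of its own list, ranked by −log10 q; right, the H3K27me3 island with the most reads there as a percentile of all islands of its list. Blue circles are the pooled A2a list and red squares the pooled D1 list, a single value each with no error; the widest H3K4me3 gap was at *Chrm3* (98.4 and 52.8), and *Chrm4* had an island in A2a (84.4) and none in D1.

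**Figure D2:**
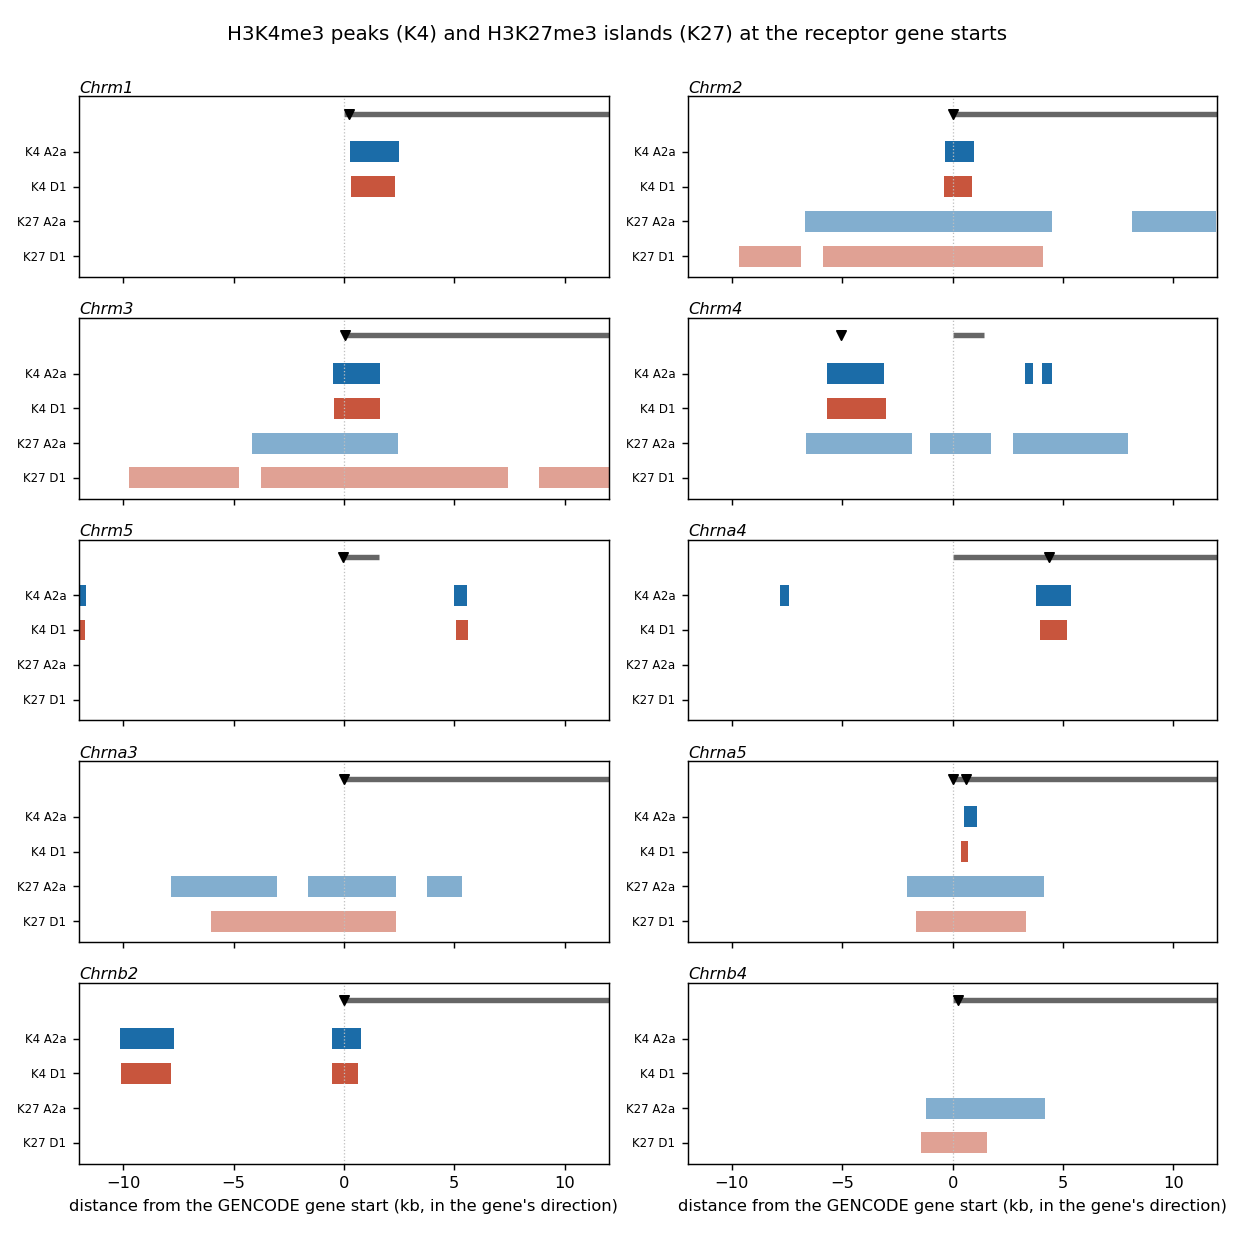
H3K4me3 peaks (K4, full colour) and H3K27me3 islands (K27, pale colour) of the A2a (blue) and D1 (red) lists within 12 kb of each GENCODE gene start, in kb along the direction of the gene; grey bars are the gene and black triangles the RefSeq starts. At *Chrm4* the peak sits over the RefSeq start 5.06 kb upstream, with islands in A2a and none in D1.

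Among the Gq-coupled receptors, *Chrm1* encodes M1, the most abundant muscarinic receptor of the forebrain. It lies on chromosome 19 at 8663789-8683587, plus strand. Its H3K4me3 peak ran over 8664069-8666296 in A2a and 8664089-8666112 in D1, with its summit in an intron in both. The fold enrichment over local background was 4.58 in A2a and 4.36 in D1, and the −log10 q was 109 and 58.9. These placed the peak at percentile 65.0 of the A2a list and 55.3 of the D1 list, a gap of 9.70 points that was at percentile 71.3 of such gaps over genes. The RefSeq start lay 64 bp before the A2a peak and 84 bp before the D1 peak. The start of the lincRNA gene AC025794.1, on the other strand, lies 454 bp from that of *Chrm1*, so a peak in the window cannot be given to 1 gene by position alone. A weak H3K4me3 peak in the UTR near the 3′ end of *Chrm1*, at 8683260-8683500, was listed in D1 alone (−log10 q of 3.39, percentile 1.26). No H3K27me3 island was near: the closest was 1054 kb from the promoter in A2a and 1103 kb in D1.

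*Chrm3* encodes M3, a receptor best known from glands and smooth muscle that is also present in neurons. The gene spans 485.362 kb on chromosome 13 at 9875486-10360847, minus strand. Its H3K4me3 peak, at 10359198-10361348 in A2a and 10359203-10361293 in D1, had nearly the same edges in both lists but not the same strength. The fold enrichment was 7.15 in A2a and 5.44 in D1, and the −log10 q was 249 and 54.3. The A2a peak stood at percentile 98.4 of its list and the D1 peak at 52.8. The gap of 45.6 points was at percentile 99.97 of the gaps over 15744 genes with a promoter peak in both lists, whose median was 4.08 points and whose 5th to 95th percentiles ran from −15.3 to 20.6. Ranked by fold enrichment instead, the gap was 17.7 points, and *Chrm3* no longer passed 20. A smaller intronic peak, at 10345509-10345775, was listed in A2a alone (−log10 q of 11.8, percentile 22.2).

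H3K27me3 at *Chrm3* went the other way, and did so mostly beyond the promoter. The promoter island ran over 10358401-10365000 in A2a, with 474 reads in 6.60 kb, and over 10353401-10364600 in D1, with 728 reads in 11.2 kb. In both lists the H3K4me3 peak lay wholly inside this island, and the longer D1 island also took in the start of Gm26861. The read densities of the promoter islands were 71.8 per kb in A2a and 65.0 in D1. The median over all islands of each list was 62.5 per kb in A2a and 37.2 in D1. Across the locus, meaning the gene body and 2 kb upstream, A2a had 4 islands over 13.6 kb (2.8% of it) with 796 reads, and D1 had 33 islands over 136 kb (28.0%) with 5891 reads. All 4 A2a islands overlapped a D1 island, and 29 of the 33 D1 islands overlapped none in A2a. The same share over all D1 islands was not computed, so 29 of 33 is not read as unusual.

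The D1 islands of the *Chrm3* body were many and mostly of moderate size. The 32 that did not touch the promoter ran from 1.4 to 22.2 kb and from 54 to 1264 reads, with a median density of 37.8 reads per kb and a range of 27 to 64.2. This median was close to the 37.2 of all D1 islands. From 2 kb upstream to 110 kb into the gene D1 had 10 islands over 66.2 kb, and A2a had 1 over 4.45 kb. The longest D1 island, of 22.2 kb, lay 84.0 to 106 kb into the gene. The log2 ratio of A2a to D1 island reads was −4.21 relative to the median gene, at percentile 0.339 of 8857 genes. This followed the length called, since the islands of the locus held 58.4 reads per covered kb in A2a and 43.2 in D1. The D1 islands covered 123 kb more of the locus than the A2a islands, which was rank 6 of 55450 genes, and 7 genes (0.0126%) reached 100 kb. The others were *Ptprm*, *Unc5d*, *Grik3*, *Pde4d*, *Nell1* and *Gucd1*. Such a difference cannot exceed the length of the locus, which is 487362 bp at *Chrm3*. Rank and share therefore depend on gene length too, and loci of like length were not compared separately. Within the promoter window alone the log2 ratio was −0.90, short of 2-fold.

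**Figure D3:**
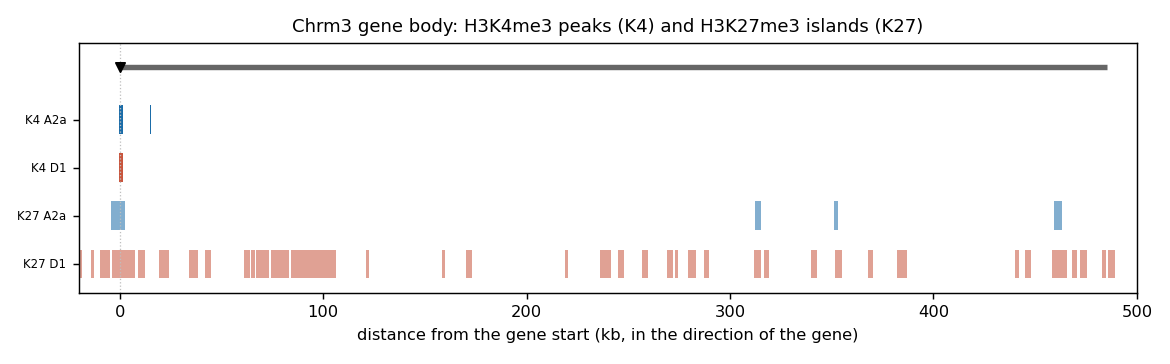
H3K4me3 peaks (K4) and H3K27me3 islands (K27) along *Chrm3*, in kb from the gene start in the direction of transcription; the grey bar is the gene and the black triangle the RefSeq start. The D1 list (red) holds 33 islands in the locus and the A2a list (blue) 4.

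*Chrm5* encodes M5, which is best known from midbrain dopamine neurons. GENCODE gives it as 1.60 kb of coding sequence on chromosome 2 at 112479171-112480769, minus strand, and the RefSeq start lies 48 bp upstream of this. No peak or island touched the gene as annotated in any list, and a start farther upstream was not looked for. The nearest H3K4me3 peak lay 3.98 kb away in A2a and 4.07 kb in D1, beyond the 3′ end of the gene. A stronger peak on the other side lay over the start of *Aven*, which ranked at percentile 80.3 of the A2a list and 68.8 of the D1 list. The nearest island was 28.8 kb away in A2a and 40.4 kb in D1.

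Of the Gi-coupled receptors, *Chrm2* encodes M2, the cardiac muscarinic receptor and an autoreceptor of cholinergic neurons. It lies on chromosome 6 at 36388084-36528414, plus strand. The H3K4me3 peak over its start, at 36387717-36389054 in A2a and 36387706-36388970 in D1, had a fold enrichment of 9.41 and 5.57 and stood at percentile 52.6 and 34.0. The gap of 18.7 points was at percentile 92.7 of all gaps. By fold enrichment it was 42.8 points, and gaps by fold enrichment were not computed over all genes. The peak lay wholly inside an H3K27me3 island in both lists. The island, 36381401-36392600 in A2a and 36382201-36392200 in D1, ranked high by reads in each list: 1326 reads in 11.2 kb, percentile 96.7, and 617 reads in 10.0 kb, percentile 97.0. By length it stood at percentile 93.3 and 95.4. It also took in the start of the gene 9330158H04Rik. Over the whole locus A2a islands covered 12.1 kb with 1110 reads and D1 islands 6.12 kb with 377 reads. Relative to the median gene the log2 ratio was 0.24, and it turned to −0.10 in the promoter window alone.

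*Chrm4*, which encodes M4, was the receptor gene whose promoter state differed. GENCODE gives only its coding exon, on chromosome 2 at 91927249-91928688, plus strand, and the RefSeq start is at 91922189, 5.06 kb upstream. The H3K4me3 peak lay over that start in both lists, at 91921570-91924128 in A2a and 91921570-91924225 in D1. The fold enrichment was 4.85 in A2a and 3.99 in D1, with a −log10 q of 26.3 and 42.5. Ranked by q, the peak stood higher in D1, at percentile 46.8 against 36.8 in A2a, and 10.2% of RefSeq genes had a gap at or below this. Ranked by fold enrichment the order turned, with percentile 26 in A2a and 17.1 in D1, so its H3K4me3 gave no direction. By length it was among the longest peaks of both lists, at percentile 94.8 and 96.7.

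In A2a the *Chrm4* peak lay wholly inside an H3K27me3 island at 91920601-91925400, with 495 reads in 4.8 kb (percentile 84.4). A second island, at 91926201-91929000, covered the coding exon with 157 reads in 2.8 kb. Another, beyond the gene at 91930001-91935200, held 323 reads in 5.20 kb over the start of *Mdk*, and 2 further H3K4me3 peaks found in A2a alone lay inside it. Over the RefSeq gene and 2 kb upstream, 9.641 kb, the A2a islands covered 78.8% with 652 reads. The D1 list held no island there, and its nearest was 93.0 kb from the promoter. At the median ratio, 652 A2a reads would correspond to 261 D1 reads, and the smallest D1 island held 27. That ratio came only from genes with islands in both lists. The smallest island of the list is not the caller's threshold over this span, so the part of depth was not tested. An unlisted stretch can still hold reads, so the mark was not detected by the caller, which is not a count of 0. Of all genes, 7.70% had a promoter island in A2a and none in D1 and 1.51% the reverse. The start of the predicted gene Gm10805 lies in the first island as well.

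The alpha4 and beta2 subunits had the same state as each other, H3K4me3 without H3K27me3. *Chrna4* is on chromosome 2 at 181018380-181043546, minus strand, with its RefSeq start 4.37 kb inside the GENCODE gene. Its peak lay over that start, at 181038174-181039763 in A2a and 181038375-181039584 in D1, with a fold enrichment of 7.17 and 6.26 at percentiles 47.0 and 36.8. *Chrnb2* is on chromosome 3 at 89746195-89764632, minus strand, and GENCODE and RefSeq give it the same start. Its peak, at 89763871-89765172 in A2a and 89764006-89765173 in D1, had its summit in the 5′ UTR. Its fold enrichments, 11.7 for A2a and 11.1 for D1, were the highest of the 10 genes in each list. By q the peak stood at percentile 83.2 and 75.5. The gaps between lists, 10.2 points at *Chrna4* and 7.70 at *Chrnb2*, were at percentiles 73.7 and 64.3 of the gaps over 14001 RefSeq genes. No island was near either gene: the nearest to *Chrna4* was 165 kb away in A2a and 164 kb in D1, and the nearest to *Chrnb2* 31.6 and 44.0 kb.

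The genes of alpha5, alpha3 and beta4 lie side by side on chromosome 9 and carried H3K27me3 at all 3 starts in both lists. From 2 kb upstream of *Chrna5* to 2 kb upstream of *Chrnb4*, 54978880-55050779 (71.9 kb), A2a had 6 islands over 33.3% of the length with 2482 reads, and D1 had 3 islands over 22.8% with 876 reads. The ratio of reads, 2.83, was near the median ratio of 2.5. H3K4me3 was found at 1 of the 3 starts, that of *Chrna5*. In A2a the nearest H3K4me3 peak to the promoter of *Chrna3* was the *Chrna5* peak, 43.6 kb away, and the nearest to that of *Chrnb4* was 46.4 kb away.

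*Chrna5* encodes an accessory subunit that joins other alpha and beta subunits in a receptor. It is on chromosome 9 at 54980880-55007779, plus strand, and has 2 RefSeq starts. The peak lay over the second, 608 bp downstream of the first, at 54981375-54981985 in A2a and 54981256-54981580 in D1. It had a fold enrichment of 6.64 in A2a, near the list's median of 6.65, and 3.52 in D1. The −log10 q of 17.1 and 4.07 put it at percentiles 29.4 and 3.70. The gap of 25.7 points was at percentile 98.4 of all gaps, and it fell to 17.0 points, short of 20, when the A2a list was reduced to as many peaks as the D1 list. The island around it, at 54978801-54985000 in A2a and 54979201-54984200 in D1, held 791 reads in 6.20 kb and 314 in 5.0 kb, percentiles 92.4 and 91.0. The peak lay wholly inside the island in both lists.

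*Chrna3*, on chromosome 9 at 55010111-55026562, minus strand, had an island of 654 reads in 4.0 kb over its start in A2a (55024201-55028200, percentile 89.9). In D1 the island was longer, 427 reads in 8.40 kb (55024201-55032600, percentile 94.5), and also took in the start of Gm47877. The A2a island was the densest of the receptor promoters, with 164 reads per kb against 50.8 in D1. *Chrnb4*, at 55028154-55048779 on the minus strand, had 534 reads in 5.40 kb in A2a (55044601-55050000, percentile 86.2) and 135 reads in 3.0 kb in D1 (55047201-55050200, percentile 66.2). Over the loci, the A2a to D1 ratio of island reads relative to the median gene was 1.37 at *Chrna3*, with 5.6 kb covered in A2a and 4.36 kb in D1. It was 1.15 at *Chrna5* (8.12 and 5.0 kb) and 0.918 at *Chrnb4* (10.2 and 7.45 kb), and none was past 2-fold. The locus windows of *Chrna3* and *Chrnb4* overlap over a short stretch. An island across both gives each locus the reads prorated to its part inside, and only the shared bases count for both.

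**Figure D4:**
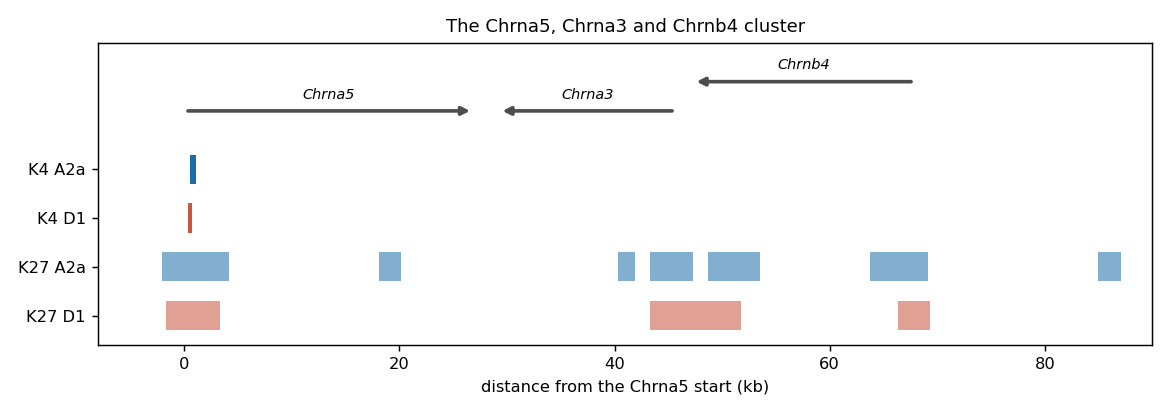
H3K4me3 peaks (K4) and H3K27me3 islands (K27) of the A2a (blue) and D1 (red) lists over the *Chrna5*, *Chrna3* and *Chrnb4* cluster, in kb from the *Chrna5* start; grey arrows show each gene and its direction. Islands lie at all 3 starts in both lists, and the H3K4me3 peak at the *Chrna5* start.

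Across the receptor genes, then, 2 of the 5 with a promoter peak in both lists had an H3K4me3 percentile over 20 points higher in A2a, *Chrm3* and *Chrna5*, against 5.67% of genes. None was over 20 points higher in D1, against 2.83%. With as many A2a peaks as D1 peaks *Chrm3* alone passed, and ranked by fold enrichment *Chrm2* and *Chrna5* did. The shares of all genes under these settings were not computed. RefSeq starts with the ranking by q gave *Chrm3* and *Chrna5* again, 2 of 7 genes, and none in D1, against 5.28% and 2.54%. For H3K27me3, 5 loci had islands in both lists. By the sum of island reads none of them was past 2-fold above the median ratio, against 13.9% of genes, and 1, *Chrm3*, was past 2-fold below it, against 6.49%. That call rested on the 33 D1 and 4 A2a islands along the gene, and in the promoter window alone no gene passed. Islands reached 6 of the loci in A2a and 5 in D1, against 24.3% and 17.6% of all genes.

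**Figure D5:**
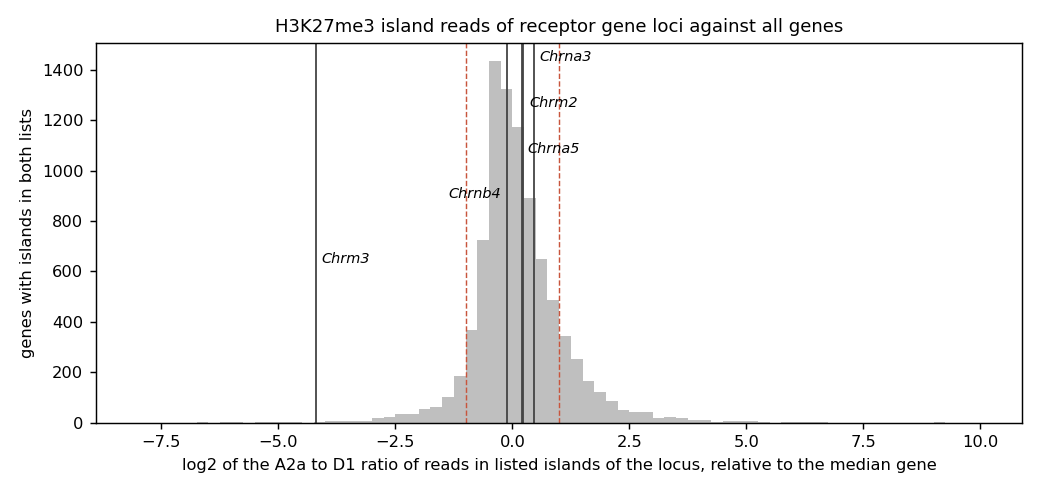
Number of genes (vertical axis) by the log2 of the A2a to D1 ratio of reads in the listed H3K27me3 islands of the locus, relative to the median gene (horizontal axis), for the 8857 genes with islands in both lists; solid lines mark the 5 receptor genes among them and dashed lines 2-fold. *Chrm3* is at −4.21, and *Chrnb4*, *Chrna5*, *Chrm2* and *Chrna3* lie between −0.12 and 0.46.

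The marks at the other genes of acetylcholine signalling were read in the same way, from lists fixed by name. The other 6 neuronal nicotinic subunits were mostly without H3K4me3: *Chrna7*, which forms the alpha7 channel, had H3K4me3 alone in both lists (percentiles 75.4 and 57.6), and *Chrna2*, *Chrna6* and *Chrnb3* had H3K27me3 alone in both. *Chrna9*, a hair cell subunit, had H3K27me3 in D1 alone, with 63 reads, and *Chrna10* had neither mark. Of the 5 muscle subunits, *Chrnb1* had H3K4me3 alone and *Chrnd* H3K27me3 alone in both lists, *Chrng* had H3K27me3 in A2a alone, and *Chrna1* and *Chrne* had neither. With RefSeq starts, *Chrna2* had neither mark in both lists and *Chrng* had H3K27me3 in both.

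All 7 genes of the muscarinic transducers and their regulator, the G protein alpha subunits *Gnaq*, *Gna11*, *Gnai1*, *Gnai2*, *Gnai3* and *Gnao1* and *Rgs4*, which speeds the return of G proteins to rest, had H3K4me3 alone in both lists. So did all 3 genes for nicotinic chaperones and modulators, *Ric3*, *Tmem35a* and *Lynx1*. H3K4me3 was at 30.1% of all annotated genes in A2a and 28.6% in D1, and at 56.1% and 53.7% of RefSeq genes. Of the 5 genes of acetylcholine synthesis, transport and breakdown, *Chat*, the synthetic enzyme, and the vesicular transporter *Slc18a3*, which sits within its locus, shared 1 island of 2235 reads over 17.4 kb in A2a and 876 reads over 13.6 kb in D1, with no H3K4me3. The choline transporter *Slc5a7* had 603 reads over 6.00 kb and 111 over 2.0 kb. *Ache*, which breaks acetylcholine down, had H3K4me3 alone, and *Bche*, a related esterase, had both marks in both lists.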

How the data were processed

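CnR libraries for H3K4me3 and H3K27me3 came from INTACT-purified striatal nuclei of A2a and D1 lines. The authors aligned with bowtie2 2.1.0 to mm10, dropped alignments of mapping quality under 20 and Picard 2.23.4 duplicates, and retained inserts between 150 and 500 bp. The authors called H3K4me3 peaks with MACS2 at a q-value of 0.01, and each deposited peak has a fold enrichment (a ratio to local background) and a −log10 q. The authors called H3K27me3 islands with SICER against a control that the sources used here do not name (window 200 bp, gap 600 bp, false discovery rate 0.01), and the deposited count is of reads in the island, not normalized. Replicates were pooled in each list and library depth is unknown. Island reads were summed over listed islands, so sums move with the length called, and no interval is given.

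Promoters ran from 2 kb upstream to 1 kb downstream of GENCODE vM21 gene starts, and an overlap of 1 bp counted. The locus was the gene body and 2 kb upstream, where the reads of an island were prorated by its length inside. Genes were called past 2-fold of the median ratio or past 20 percentile points. RefSeq starts on GRCm38.p6 (26180 genes) were added after the data were seen. All 10 receptor genes and the comparison lists are named. These genes and lists were chosen with earlier results of these data known. The other 20 samples were not analysed here. Procedures were tested on simulated data. Python 3.11.15 was used with pandas 2.3.3, numpy 2.4.6, scipy 1.17.1 and matplotlib 3.10.9.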

Additional observations from a re-analysis of the deposited data

How the results depend on the processing

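No paired analysis was possible because each list pools its 2 replicates and its columns carry no replicate number, and for the same reason no replicate could be left out. The 13 counts were recomputed under 15 other settings, which gave 87 values, of which 82 were within 1.5 times the value reported and 72 were identical. The other 5 moved. Among these settings, shares over all genes were computed for RefSeq starts only, so the counts that follow have no background share. With a window of 5 kb on either side of the start, H3K4me3 was at 8 genes in A2a, and the marks differed at 2 genes, *Chrm5* and *Chrm4*. With peaks of a −log10 q of at least 5, the marks differed at 2, *Chrm4* and *Chrna5*, whose D1 peak was removed. In the promoter window alone, 0 genes were past 2-fold higher in D1 by H3K27me3. With as many A2a peaks as D1 peaks, 1 gene, *Chrm3*, was over 20 percentile points higher in A2a, and the gap of *Chrna5* was 17.0 points. Ranking by fold enrichment kept that count at 2, but with *Chrm2* and *Chrna5* (42.8 and 39.8 points). No difference changed direction past a threshold. A gene without a listed island can hold reads below what the caller accepts. Sums of island reads were called as different only relative to the median gene. The single island reads and densities given for each list were not scaled for depth.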
